A study of Mus musculus with 4 samples.

Results

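The expression of 42 genes that drive chromosome segregation was compared between unstimulated L929 cells, fibroblasts first grown from mouse subcutaneous connective tissue, and unstimulated NIH3T3 cells, fibroblasts first grown from mouse embryos. The genes were taken by name for their function, but with earlier results of these data known. They comprised mitotic kinases, the spindle checkpoint and its target the anaphase-promoting complex, kinetochore proteins, kinesins and condensin. All 42 had a probe set of their own among the 18193 genes that the Mouse Genome 430 2.0 array measured under a unique symbol, with 99 probe sets in all, of which 91 were bright enough to be tested. There were 2 arrays of L929 and 2 of NIH3T3, none of them treated, and the labels give no clone, passage or culture density. The submitters set L929 as a line prone to necrosis against NIH3T3 as a line prone to apoptosis. Because 1 line stands for each way of dying, line and way of dying cannot be told apart. Whether the arrays of a line come from separate cultures is not stated in the labels, so each p-value reflects the scatter between these arrays, which may be technical.

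Most of these genes are transcribed in waves that peak as cells approach division, under the transcription factor FOXM1 and the MuvB complexes. Aurora and polo-like kinases build the spindle, the kinetochore ties each chromosome to spindle microtubules, and the checkpoint holds back the anaphase-promoting complex until every chromosome is attached. That complex, a ubiquitin ligase also called APC/C, then marks securin and cyclin B for destruction, and separase cuts the cohesin that holds sister chromatids together. In a culture, the RNA level of such genes depends both on how many cells are near division and on how much RNA each of them holds, and an array of bulk RNA cannot tell these apart.

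Each value below is a MAS5 signal in arbitrary units after scaling of the arrays to a common trimmed mean. Differences are log2 differences, L929 minus NIH3T3, taken after an offset of 8.01 was added, and signals of different probe sets are not compared with each other. A gene was called if its adjusted p in limma lay under 0.05 and its fold above 1.5. As deposited, the trimmed means were 142 and 135 for the L929 arrays, against 135 and 210 for NIH3T3 replicates 1 and 2, so that NIH3T3 replicate 2 was the brightest array. After scaling, the brightest 5% of genes were still lower on NIH3T3 replicate 2 than on replicate 1 by a median of 0.23 on the log2 scale (546 of 633 genes), whereas the median over all genes differed by 0.01. Among the 42 mitotic genes 26 were lower on NIH3T3 replicate 2 than on replicate 1 (median -0.16), beside 6094 of all 12676 genes. On L929 replicate 2, 28 of the 42 were lower than on L929 replicate 1 (median -0.06), beside 5913 of all genes. Results with an array left out are therefore given where a call changed. Markers of fibroblasts were above the filter level of 17.3 on both arrays for 8 of 10 genes in L929 and 10 of 10 in NIH3T3, with summed signals of 35074 to 36570 and 30462 to 39534. The decorin gene Dcn and the lumican gene Lum lay above that level on 1 of the 2 L929 arrays. The sums rest mainly on Vim, S100a4 and Col1a2, the brightest of the list in both lines, and hide differences between the lines. Of the 10 fibroblast markers, limma called 4 lower in L929 and 1 higher, and 5 were not called, or 50% called, beside 35.1% of all genes. Thy1 averaged 24.03 in L929, barely above the filter level, and 2223 in NIH3T3. Dcn averaged 10.89 in L929 and 1477 in NIH3T3, and Pdgfra 283 and 1661. Pdgfrb was higher in L929, at 1022 on average, against 510 in NIH3T3. Epithelial, leukocyte and endothelial marker lists summed to 57.1 to 145 in L929 and to 48.4 to 170.1 in NIH3T3. Leukocyte markers lay above the filter level on both arrays for 3 of 5 genes in L929 and 2 of 5 in NIH3T3, epithelial markers for 2 of 6 and 3 of 6, and endothelial markers for 1 of 5 and 0 of 5. Adgre1, Cd68, Epcam and Krt8 were above it on all 4 arrays, at signals of 21.8 to 81.0, while Ptprc and Pecam1 were below it on all 4. Their part in the results was not tested.

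The mitotic genes were expressed in both lines, and most were not called between them. Every one of the 42 lay above the filter level on all 4 arrays, the lowest signal being 195. In L929, 7 were called higher and 1 was called lower, which is 19% of the members beside 35.1% of the 12676 genes tested. By direction, 16.7% of the members were called higher beside 17.4% of all genes, and 2.38% were called lower beside 17.7% of all genes. The share called was 34.8% among the 5334 genes at least as bright as the dimmest member. Only 3 members, Spc24, Nek2 and Pttg1, differed by more than 2-fold, or 7.14%, beside 21.6% of all genes. These shares are descriptions of the list and were not tested against other lists.

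The differences that were measured leaned upwards. The median log2 difference was 0.25 over the 42 members, 0.01 over all genes and 0.12 over the brightest 5% of genes, and 33 members were positive and 9 negative, beside 50.8% positive among all genes. The member median was 0.31 without NIH3T3 replicate 1 and 0.16 without NIH3T3 replicate 2, and it was -0.03 in the values as deposited, where the median of all genes was -0.26. Besides the 8 called genes, 10 members had an adjusted p under 0.05 with a fold under 1.5, 9 positive and 1 negative, so that 42.9% of the members lay under 0.05, beside 47% of all genes. The lines did not overlap for 31 of the 42 members, 28 higher and 3 lower in L929, beside 73.9% of all genes. For both counts the share of all genes was not split by direction. For 20 of the 34 members that were not called, the 95% interval of the difference lay wholly within 1.5-fold either way. For the other 14 it reached beyond 1.5-fold, so a difference of that size is not bounded out by these arrays.

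**Figure D1:**
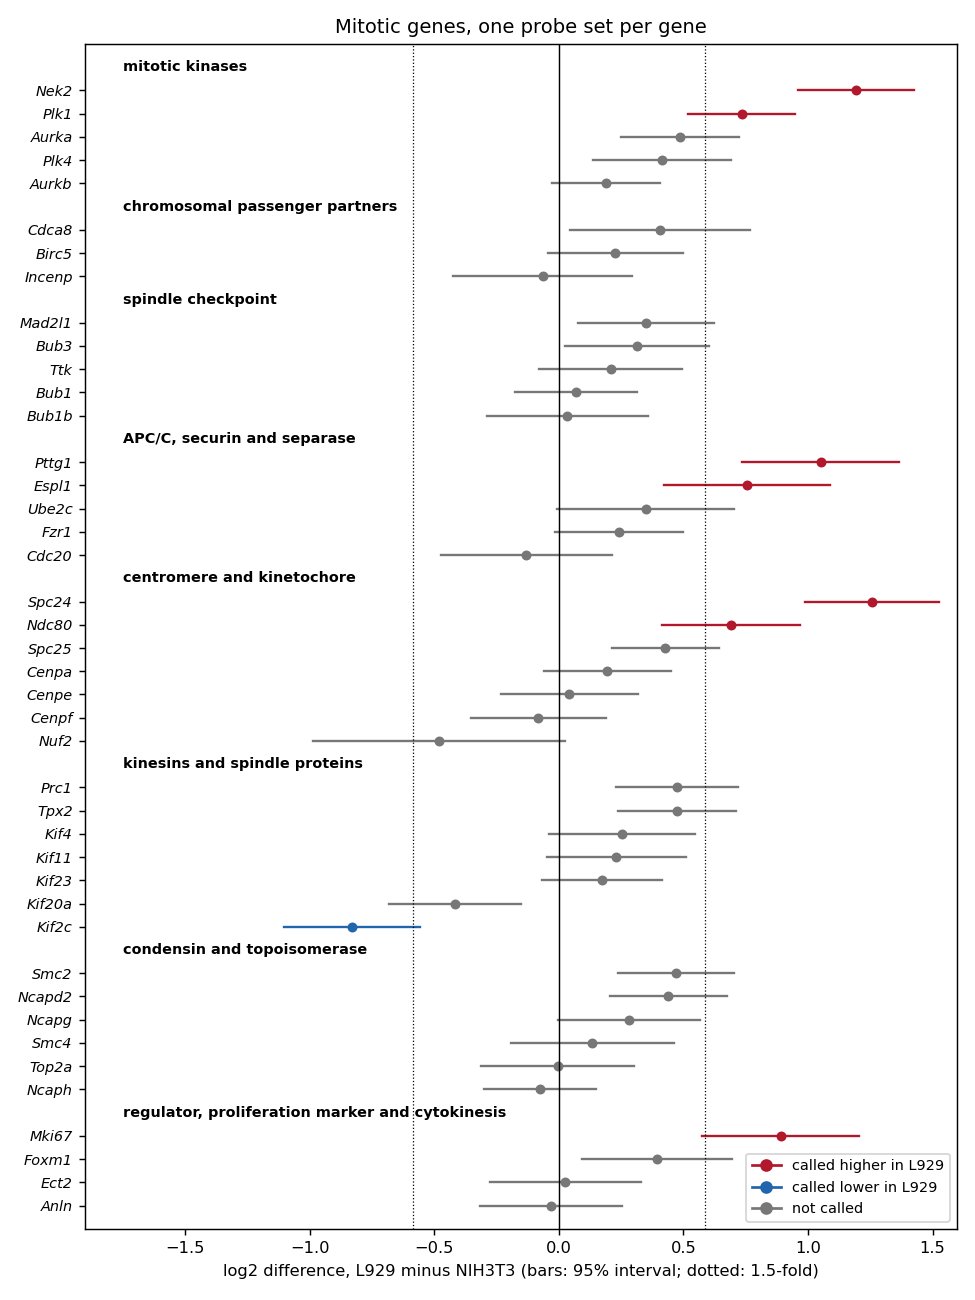
The log2 difference of each of the 42 mitotic genes is plotted on the x axis (L929 minus NIH3T3, 2 arrays each) by functional group on the y axis, with the 95% interval of limma as a bar and 1.5-fold as dotted lines. The 7 genes called higher run from Ndc80 at 0.69 to Spc24 at 1.26, Kif2c is called lower at -0.83, and the other 34 lie between -0.48 and 0.49.

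**Figure D2:**
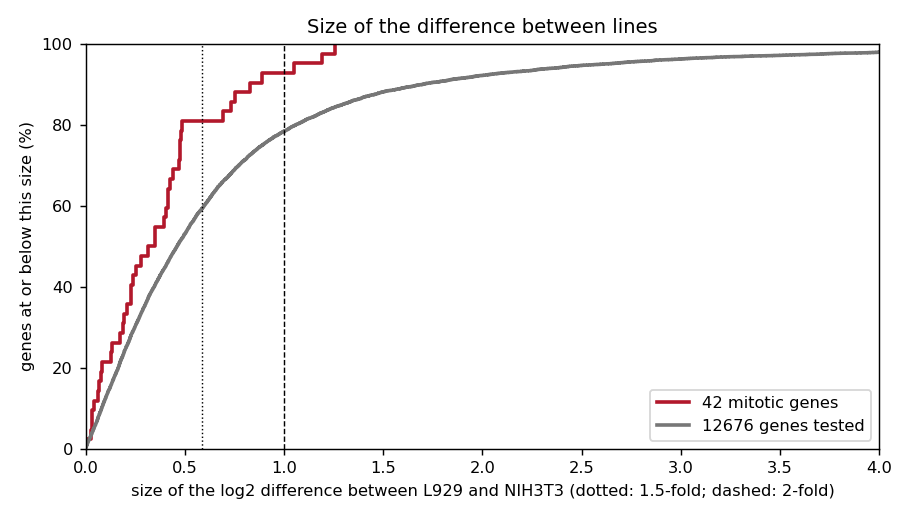
The curves give the percentage of genes (y axis) whose log2 difference between the lines is at most the size on the x axis, for the 42 mitotic genes and for all 12676 genes tested. The x axis ends at 4. The curve of the mitotic genes lies above that of all genes at 1.5-fold (dotted) and at 2-fold (dashed), and it ends at 1.26.

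The upstream sequences of these genes were examined because the mitotic wave is known to run through the cell cycle homology region, or CHR, and through CCAAT boxes, which NF-Y binds. RefSeq promoter windows (build GRCm38.p6) were at hand for 35 of the 42 members, and the 250 bases before each start were searched on both strands for TTTGAA or TTCGAA as the CHR and for CCAAT. A CHR was found in 14 of 35 members (40.0%), beside 14.7% of the 10219 tested genes with a window. A CCAAT box was found in 26 of 35 (74.3%), beside 40.6%, and both in 13 of 35 (37.1%), beside 5.45%. No CHR match overlapped a CCAAT match in the members' windows. Both motifs together were found in 2 of the 6 members called higher that had a window, and in 11 of the 28 that were not called. The printed windows hold the 200 bases before the start, with CHR and CCAAT matches in capitals on either strand. They show 4 called genes. Espl1 holds the pair close to the start, Mki67 further up, Nek2 a CCAAT box alone and Kif2c, the gene called lower, a CHR alone. Also printed are Cdc20 and Kif11, which were not called and hold the pair close to the start. Of the called genes not printed, Plk1 held a CCAAT box alone, Pttg1 and Ndc80 held neither motif, and Spc24 had no window. Neither motif was found in Plk4, Birc5, Mad2l1, Nuf2, Ncaph and Anln, which were not called. Bases after the start and other spellings of either motif were not searched, so a motif there would be missed.
Espl1 (chr15:102296093-102296292, plus strand): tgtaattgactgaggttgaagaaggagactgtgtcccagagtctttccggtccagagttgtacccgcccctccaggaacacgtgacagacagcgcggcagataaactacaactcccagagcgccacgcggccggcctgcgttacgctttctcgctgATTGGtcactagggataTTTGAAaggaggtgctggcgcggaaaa
Mki67 (chr7:135716380-135716579, minus strand): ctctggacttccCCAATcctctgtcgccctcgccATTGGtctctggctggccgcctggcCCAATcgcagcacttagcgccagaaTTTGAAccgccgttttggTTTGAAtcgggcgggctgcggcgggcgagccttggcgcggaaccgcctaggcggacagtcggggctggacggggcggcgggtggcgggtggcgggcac
Nek2 (chr1:191821273-191821472, plus strand): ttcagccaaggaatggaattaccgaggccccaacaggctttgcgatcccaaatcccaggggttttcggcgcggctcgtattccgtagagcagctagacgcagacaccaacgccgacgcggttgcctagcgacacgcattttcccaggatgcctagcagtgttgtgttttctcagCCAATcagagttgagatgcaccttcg
Kif2c (chr4:117178773-117178972, minus strand): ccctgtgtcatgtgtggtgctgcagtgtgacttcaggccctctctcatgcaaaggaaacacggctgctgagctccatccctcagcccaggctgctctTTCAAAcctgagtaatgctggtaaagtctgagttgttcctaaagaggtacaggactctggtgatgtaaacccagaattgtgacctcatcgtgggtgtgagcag
Cdc20 (chr4:118437344-118437543, minus strand): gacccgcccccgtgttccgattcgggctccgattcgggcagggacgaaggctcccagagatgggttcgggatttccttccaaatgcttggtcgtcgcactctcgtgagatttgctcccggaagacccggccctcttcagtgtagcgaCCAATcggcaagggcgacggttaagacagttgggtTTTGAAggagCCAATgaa
Kif11 (chr19:37376182-37376381, plus strand): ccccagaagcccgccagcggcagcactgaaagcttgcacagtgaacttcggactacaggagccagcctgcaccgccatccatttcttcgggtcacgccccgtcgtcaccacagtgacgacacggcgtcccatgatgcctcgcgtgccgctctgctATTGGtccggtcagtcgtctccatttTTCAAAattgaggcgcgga
In Espl1 the CHR began 27 bases before the start and the CCAAT box 44 bases before it. Cdc20 carried a CHR at 18 bases and CCAAT boxes at 53 and 8 bases, and Kif11 a CHR at 19 bases and a CCAAT box at 45 bases. In all, 8 members had a CHR match that began within 50 bases of the start. Of these 8, 1 was called, Espl1, beside 19% of the members and 35.1% of all genes. Whether position and call are related was not tested. A match is a stretch of letters and not a measured binding site.

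Among the 5 mitotic kinases, Nek2 and Plk1 were called higher in L929 and 3 were not called, or 40% called, beside 35.1% of all genes. Nek2, a kinase that separates the centrosomes before mitosis, measured 1021 and 1119.9 in L929, against 442 and 485 in NIH3T3. Both L929 arrays lay far above both NIH3T3 arrays, a 2.29-fold difference (log2 1.19 ± 0.10 SE, limma adjusted p = 3.8e-05). Plk1, the polo-like kinase that acts at centrosomes, kinetochores and the midzone, measured 1019 and 1078 in L929, against 637 and 617 in NIH3T3. The lines did not overlap, and the difference was 1.66-fold (log2 0.73 ± 0.09 SE, limma adjusted p = 0.000355). Aurka, which encodes the spindle pole kinase Aurora A, measured 1250.2 and 1225 in L929, against 937 and 829 in NIH3T3. It stood apart between the lines at 1.40-fold (95% interval of the log2 difference 0.25 to 0.72, limma adjusted p = 0.00516), under the fold threshold. Plk4, the kinase that starts centriole duplication, gave 1.33-fold (log2 0.41, limma adjusted p = 0.0215), again under the threshold. Aurkb, which encodes the Aurora kinase of the centromere, had signals of 728 and 753 in L929, against 672 and 626 in NIH3T3, with an interval of -0.03 to 0.41 and a limma adjusted p of 0.139.

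The chromosomal passenger partners of Aurora B, which place the kinase at the centromere, gave 0 calls in 3 genes, beside 35.1% of all genes. Of the 3, Cdca8 alone had an unadjusted limma p under 0.05, at 0.0319. Birc5, which encodes survivin, averaged 1780.1 ± 132 in L929 and 1521 ± 146 in NIH3T3 (SD, n = 2 arrays each, limma adjusted p = 0.151). Incenp, the scaffold of the complex, averaged 1183 ± 253 in L929 and 1228 ± 147 in NIH3T3, and the lines overlapped. Cdca8, which encodes borealin, measured 1524 and 1465 in L929, against 1338 and 946 in NIH3T3. The NIH3T3 arrays lay apart from each other, and the log2 difference of 0.41 (limma adjusted p = 0.0644) became 0.65 and was called higher without NIH3T3 replicate 1 (adjusted p = 0.00193), and was 0.16 without NIH3T3 replicate 2.

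The 5 genes of the spindle checkpoint were all positive and none was called, beside 35.1% of all genes. Their log2 differences ran from 0.03 for Bub1b, the pseudokinase BUBR1 of the mitotic checkpoint complex, to 0.35 for Mad2l1, which encodes MAD2, the protein that binds and blocks CDC20. Mad2l1 measured 2541 and 2276 in L929, against 1811 and 1959 in NIH3T3, and it was the only one of the 5 with an adjusted p under 0.05 (limma adjusted p = 0.0395, 1.28-fold). Ttk, which encodes the kinase MPS1 that starts the checkpoint signal, gave 235 and 268 in L929, against 211 and 221 in NIH3T3. Its interval of -0.08 to 0.50 and that of the kinase gene Bub1, -0.18 to 0.31, lay within 1.5-fold. Bub3, an adaptor that recruits BUB1 to kinetochores, averaged 2244 ± 157 in L929 and 1809 ± 203 in NIH3T3 (limma adjusted p = 0.0735), and its probe sets did not share a sign.

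Downstream of the checkpoint, the genes of securin and separase were called higher in L929, while the APC/C activators were not called. In this group 2 of 5 genes were called, or 40%, beside 35.1% of all genes. Pttg1, which encodes securin, the inhibitor of separase, measured 3727 and 3821 in L929, against 1643 and 2009 in NIH3T3. The L929 arrays were close to each other and far above the NIH3T3 arrays, at 2.07-fold (log2 1.05 ± 0.14 SE, limma adjusted p = 0.000389). Espl1, which encodes separase, the protease that cleaves cohesin, measured 645 and 739 in L929, against 468 and 351 in NIH3T3. That is 1.69-fold (log2 0.76 ± 0.15 SE, limma adjusted p = 0.00322), and without NIH3T3 replicate 2 the log2 difference of 0.55 fell short of the fold threshold. Cdc20, the APC/C activator of metaphase, had signals of 3339 and 3117 in L929, against 3919 and 3185 in NIH3T3, which overlap. Fzr1, which encodes CDH1, the activator of late mitosis and G1, gave an interval of -0.02 to 0.50. Ube2c, the ubiquitin-conjugating enzyme of APC/C, averaged 2951 ± 132 in L929 and 2338 ± 461 in NIH3T3 (limma adjusted p = 0.0994). Its log2 difference of 0.35 was 0.55 without NIH3T3 replicate 1 and 0.15 without NIH3T3 replicate 2.

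**Figure D3:**
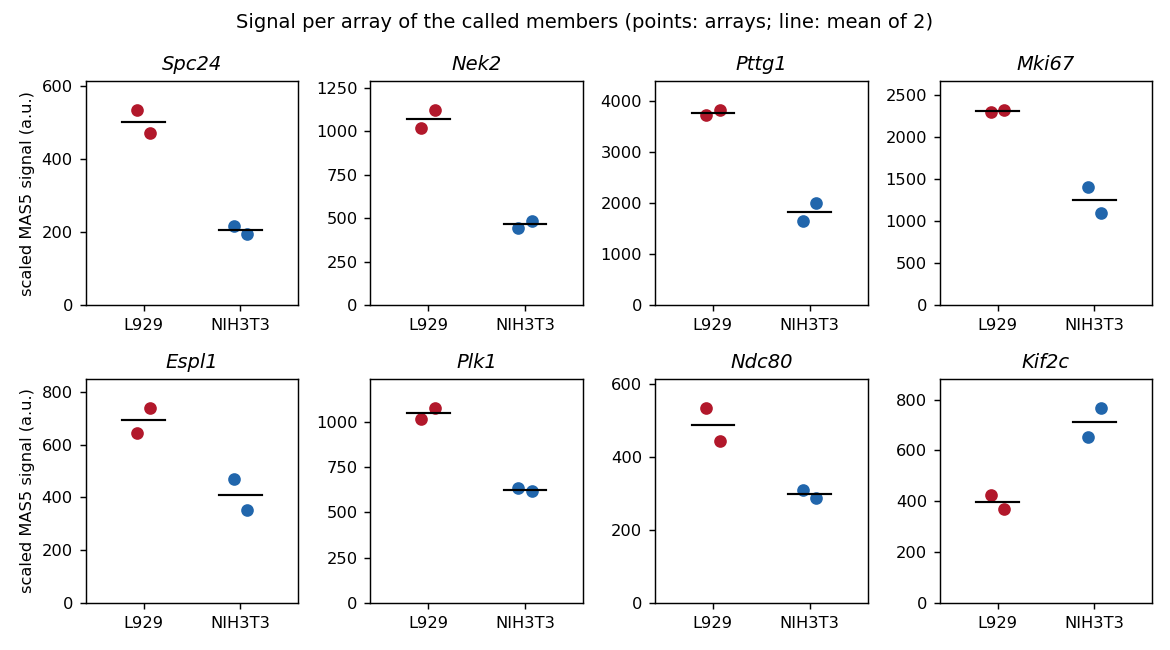
The panels show the scaled MAS5 signal (y axis, arbitrary units, from 0) of the 8 called members on each array, with L929 to the left of NIH3T3, points for arrays and a line for the mean of 2. In each of the 8 panels both points of one line lie apart from both points of the other, and Kif2c alone is lower in L929.

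At the kinetochore, the subunits of the NDC80 complex gave unlike values. This complex of 4 proteins is the main microtubule anchor of the kinetochore, with NDC80 and NUF2 at the microtubule end and SPC24 and SPC25 at the chromosome end. Spc24 measured 534 and 472 in L929, against 217 and 195 in NIH3T3. The lines were well apart, at 2.39-fold (log2 1.26 ± 0.12 SE, limma adjusted p = 6.2e-05), the largest difference among the 42 genes. Ndc80 measured 535 and 444 in L929, against 311 and 287 in NIH3T3, or 1.61-fold (log2 0.69 ± 0.12 SE, limma adjusted p = 0.00197). Without L929 replicate 1 its log2 difference was 0.56, under the fold threshold. Spc25 measured 704 and 677 in L929, against 501 and 522 in NIH3T3, which is 1.35-fold (limma adjusted p = 0.00596) and not called. Nuf2 had a negative difference, with signals of 256 and 227 in L929, against 260.1 and 444 in NIH3T3. Its interval was wide, -0.99 to 0.02 (limma adjusted p = 0.108), and the NIH3T3 arrays lay far apart. The log2 difference was -0.86 and called lower without NIH3T3 replicate 1 (adjusted p = 0.00496), and -0.11 without NIH3T3 replicate 2. Whether the subunits differ from each other was not tested. The centromeric histone gene Cenpa (1703 ± 48.0 in L929 and 1488 ± 130.1 in NIH3T3), the kinetochore motor gene Cenpe and the large coiled-coil gene Cenpf had log2 differences of 0.20, 0.04 and -0.08, with intervals inside 1.5-fold.

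Of the 7 kinesins and spindle proteins, Kif2c was called lower and none was called higher, or 14.3% called, beside 35.1% of all genes. The lines did not overlap for any of the 7, beside 73.9% of all genes without overlap. Kif2c, which encodes MCAK, a kinesin that takes microtubules apart and corrects wrong attachments, measured 423 and 369 in L929, against 654 and 767 in NIH3T3. It was 1.78-fold lower in L929 (log2 -0.83 ± 0.12 SE, limma adjusted p = 0.000655). Kif20a, which encodes MKLP2, the kinesin that carries the passenger complex to the midzone, had 478 and 447 in L929, against 679 and 565 in NIH3T3. Its log2 difference of -0.42 (limma adjusted p = 0.0178) was the other negative value of the group and lay under the fold threshold. The spindle assembly factor gene Tpx2 measured 1253 and 1139.9 in L929, against 895 and 822 in NIH3T3, and the midzone bundler gene Prc1 measured 1201 and 1187 in L929, against 796 and 921 in NIH3T3. Both were 1.39-fold higher on the mean, with limma adjusted p = 0.0058 for Tpx2 and 0.00664 for Prc1, and were not called. Kif11, which encodes the bipolar spindle motor Eg5, Kif23, which encodes MKLP1 of the centralspindlin complex, and the chromokinesin gene Kif4 had log2 differences of 0.23, 0.18 and 0.25, with adjusted p from 0.14 to 0.206.

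Condensin, the ring complex that compacts mitotic chromosomes, and topoisomerase II alpha gave 0 calls in 6 genes, beside 35.1% of all genes. Of the 6, 2 had an adjusted p under 0.05, beside 47% of all genes. Smc2, one of its ATPase subunits, measured 1256 and 1166 in L929, against 835 and 909 in NIH3T3, or 1.39-fold (limma adjusted p = 0.00554). Ncapd2, a HEAT-repeat subunit of condensin I, measured 649 and 659 in L929, against 512 and 449.7 in NIH3T3, or 1.36-fold (limma adjusted p = 0.0081). For both, the L929 arrays lay above the NIH3T3 arrays by less than the fold threshold. The partner ATPase gene Smc4 averaged 3056 ± 203 in L929 and 2793 ± 376 in NIH3T3, while Ncapg and Ncaph had log2 differences of 0.28 and -0.08. That of Ncapg was 0.44 without NIH3T3 replicate 1 and 0.13 without NIH3T3 replicate 2. Top2a, which encodes the topoisomerase that untangles sister chromatids, was the closest to equal of the 42, at 2898 and 2927 in L929 against 3166 and 2692 in NIH3T3, with an interval of -0.31 to 0.30.

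Of the transcriptional regulator, the proliferation marker and the cytokinesis genes, only Mki67 was called, or 25% of 4 genes, beside 35.1% of all genes. Mki67, which encodes Ki-67, the surface coat of mitotic chromosomes and a widely used marker of cycling cells, measured 2304 and 2322 in L929, against 1413 and 1094 in NIH3T3. The L929 arrays were nearly equal and both above the NIH3T3 arrays, at 1.85-fold (log2 0.89 ± 0.14 SE, limma adjusted p = 0.000975). Foxm1, the activator of many genes in the group, measured 387 and 473 in L929, against 348 and 301 in NIH3T3, or 1.32-fold (limma adjusted p = 0.0373), under the threshold. Anln, which encodes the contractile ring scaffold anillin, and Ect2, which encodes the exchange factor that activates RhoA at the midzone, had log2 differences of -0.03 and 0.03. Their intervals of -0.32 to 0.26 and -0.27 to 0.33 lay within 1.5-fold.

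The probe sets of a gene were compared with each other as a check on the value used. Several were tested for 28 genes, of which 11 held both signs and 0 were called in both directions, and over the 91 tested probe sets 14 were called higher and 4 lower, beside 14.9% and 16.7% of all 27438, or 31.6% in either direction. Of the 8 calls, 3 rest on probe sets whose names end in _s_at or _x_at, which can share probes with other transcripts: Nek2, Pttg1 and Kif2c. Each of these had a second probe set called the same way. For Nek2 it differed by 0.62, while another, dim one stood at -0.25. The second for Pttg1 differed by 0.90, and one at 0.39 was not called. Kif2c was called lower on 3 probe sets at -0.83, -0.75 and -0.62, and another, below the filter level on both NIH3T3 arrays, stood at 0.69 without a call. Taking the mean over all tested probe sets of a gene ended the calls of Nek2 (log2 0.52) and Kif2c (-0.38). Among genes not called, Tpx2 held a probe set called higher at 1.01, Plk4 had 2 called higher at 0.61 and 0.68, and Smc2 and Incenp had 1 each at 0.59 and 0.88. Bub3 had a probe set called lower at -0.68, opposite in sign to the 0.31 of the one used. The remaining calls, Plk1, Espl1, Ndc80, Spc24 and Mki67, each rest on a single probe set.

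**Figure D4:**
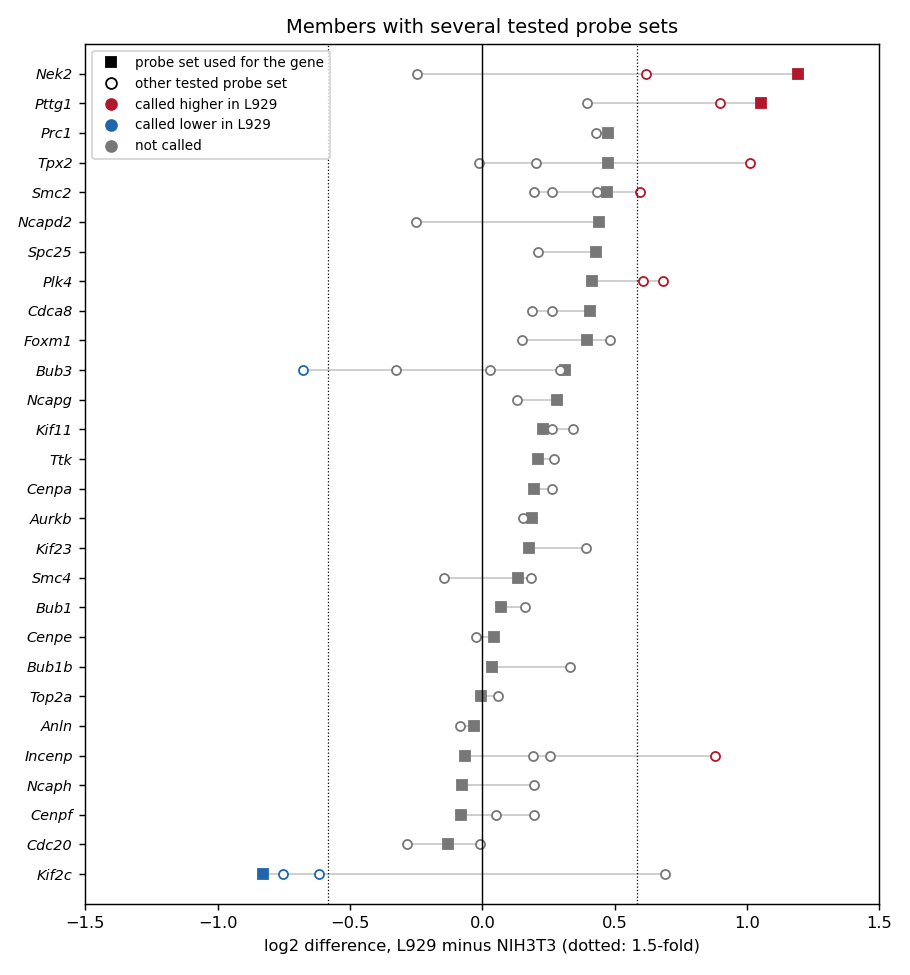
Each row is a gene for which more than 1 probe set was tested (28 genes), and the x axis gives the log2 difference (L929 minus NIH3T3) of each probe set, filled squares for the one used and open circles for the others. Probe sets of Kif2c spread from -0.83 to 0.69 and those of Bub3 from -0.68 to 0.31, whereas Prc1 and Aurkb each hold a pair less than 0.05 apart.

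The rest of the cell division machinery was described with 7 further lists of genes grouped by function. Of 43 other kinetochore and spindle genes 10 were called higher and 2 lower (27.9%), with a median log2 difference of 0.30. Cenpk, a subunit of the inner kinetochore, was 3.24-fold higher (669 ± 14.5 in L929 and 202 ± 23.8 in NIH3T3, SD, n = 2 arrays each, limma adjusted p = 1.03e-05). Cenpw, which encodes a histone-fold protein of the inner kinetochore, and the chromokinesin gene Kif22 were 1.88-fold and 1.77-fold higher. Zwint, which encodes a kinetochore partner of the RZZ complex, was 1.96-fold lower (1013 ± 122 in L929 and 2008 ± 404 in NIH3T3, limma adjusted p = 0.00116), and Kntc1, the ROD subunit of that complex, was 1.54-fold lower.

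Among 10 other cytokinesis genes 1 was called higher and 2 lower. The higher one was Racgap1, the partner of KIF23 in centralspindlin, at 2579 and 2401 in L929 against 1033 and 926 in NIH3T3, or 2.53-fold (limma adjusted p = 3.04e-05). Its partner Kif23 was not called, as given above, and the difference between the partners was not tested. Diaph3, a formin, and the centriolar gene Cntrob were 1.80-fold and 1.62-fold lower. Of 18 genes of the APC/C core and its inhibitors 4 were called higher and 2 lower. Fbxo5, which encodes the APC/C inhibitor EMI1, and Trip13, the ATPase that remodels MAD2, were 2.25-fold and 2.13-fold higher (limma adjusted p = 8.04e-05 and 3.68e-05). Among the subunits, Anapc16 was 2.26-fold higher, while Cdc26 and Cdc27 were 2.36-fold and 1.97-fold lower.

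Cohesin and condensin II genes gave 3 higher and 1 lower of 16, and centrosome and centriole genes 3 higher and 2 lower of 24. Nipbl, the cohesin loader, was 2.27-fold higher and the acetyltransferase gene Esco2 1.87-fold higher. The alternative cohesin subunits moved in opposite directions, with Stag1 1.63-fold higher and Stag2 1.82-fold lower (limma adjusted p = 0.000502 and 0.000221). Tubgcp2, a part of the gamma-tubulin complex, and Haus7, of the augmin complex, were 2.02-fold and 1.74-fold higher, as was Cetn3, a centrin gene, at 1.58-fold. Haus2 and Stil were 1.62-fold and 1.57-fold lower.

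In the scaled values, the lists of G2/M and S phase genes gave calls in a single direction. Of all genes, 17.4% were called higher and 17.7% lower. The 7 further lists were not run under the alternatives of processing, so whether these calls hold without scaling was not tested. Of 18 genes of the G2/M cyclins and CDK1 control 5 were called higher (27.8%) and 0 lower, by limma, and the median difference of the 18 was 0.22. Of these 18 differences 14 were positive and 4 negative, with Ccnf at -0.42 (limma adjusted p = 0.00798), under the fold threshold. Ccnb2, which encodes cyclin B2, measured 1304 and 1248 in L929, against 236 and 258 in NIH3T3. At 5.03-fold (limma adjusted p = 8e-07) it stood beyond every member of the group. Mybl2, a transcription factor that works with MuvB, and the phosphatase regulator gene Ensa were 2.08-fold and 1.70-fold higher. Of 36 genes of S phase and replication 8 were called higher (22.2%) and 0 lower, with a median of 0.31. Here 28 differences were positive and 8 negative, with Ccne1 at -0.46 (limma adjusted p = 0.00445), under the fold threshold. The largest differences there were those of Gins2 and Gins1, subunits of the replicative helicase, at 2.54-fold and 2.18-fold, and of the licensing inhibitor Gmnn at 2.06-fold. The share called was below that of all genes in each of the 7 lists, from 20.8% to 33.3% beside 35.1%, and no list was tested as a whole.

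**Figure D5:**
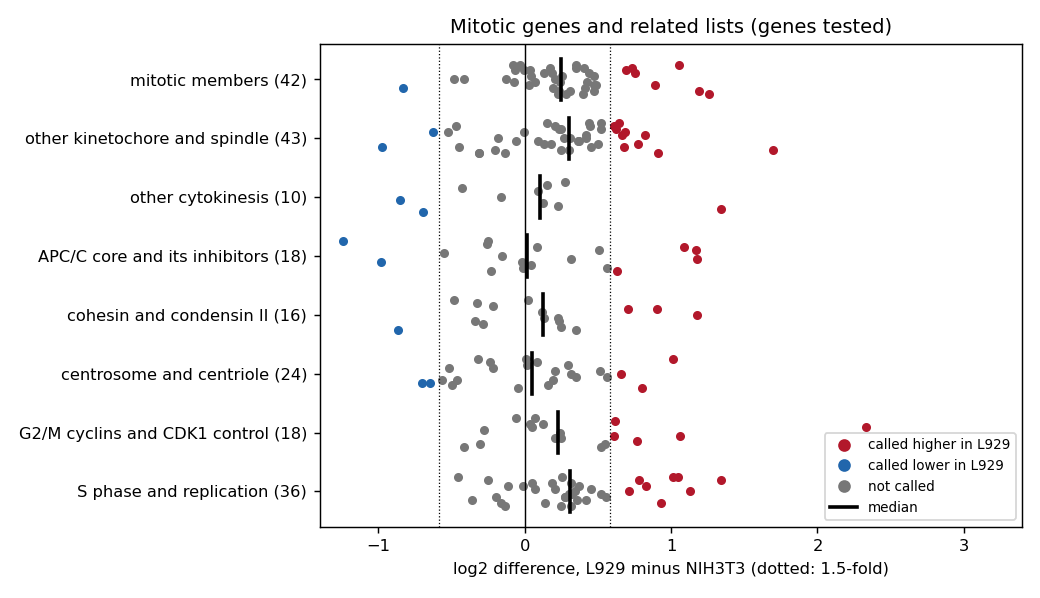
Every point is a tested gene, placed by its log2 difference (x axis, L929 minus NIH3T3) in the row of its list, with the number of genes tested in brackets and the median as a black line. Medians run from 0.02 in the APC/C list to 0.31 in the S phase list, beside 0.25 for the mitotic members, and Ccnb2 lies furthest to the right at 2.33.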

How the data were processed

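RNA of 2 L929 and 2 NIH3T3 samples was hybridised to Mouse Genome 430 2.0 GeneChips (Affymetrix). Per the submitters' processing notes, the deposited intensities are MAS5 signals. The MAS5 version, scaling target and genome build were not stated there, and detection calls were not used. Groups come from the sample titles. Of 45037 non-control probe sets, 34945 have 1 symbol in the platform annotation, 932 several and 9160 none here. Genes were named from the first kind only.

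Each array was scaled to the geometric mean of the 4 trimmed means (2% off each end), an offset of 8.01 (the 25th percentile) was added and log2 taken. Probe sets above 17.3 (the 40th percentile) on both arrays of a line were tested with limma 3.58.1 (R 4.3.3), using lmFit and then eBayes with its intensity trend. Each gene was represented by its brightest tested probe set on the mean of the 4 arrays, and p-values were adjusted by Benjamini-Hochberg over all 12676 genes. Probe sets were fitted and adjusted likewise over all 27438. The adjusted p and fold thresholds are those the submitters state, without a test. With 2 arrays per line, precision is limited by their number. The procedure was tested on simulated data with few changed probe sets and arrays of like brightness. That simulation therefore did not test the scaling step.

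The members and lists were chosen with earlier results of these data known. Named genes are all members, markers, and from each other list at most 3 called genes per direction, taken by size of difference. Same-numbered arrays share only a number. The alternatives covered scaling, offset, filter, probe set choice, variance model, the replicate block and each array left out.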

Additional observations from a re-analysis of the deposited data

How the results depend on the processing

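Of 16 alternatives, 11 kept all 8 member calls and gained none, among them quantile normalization, median scaling and the replicate block. In the values as deposited, without scaling, 1 member was called higher by limma (7 with scaling) and 1 lower, where 808 genes were higher and 1767 lower in all, against 2202 and 2244 with scaling. The calls of Pttg1 and Kif2c were kept and those of 6 others were lost. Nek2 (0.91), Spc24 (0.98) and Mki67 (0.61) stayed above 1.5-fold and missed the adjusted p threshold (0.102, 0.12 and 0.184), while Plk1 (0.45), Espl1 (0.47) and Ndc80 (0.41) missed both thresholds. Leaving out scaling shifted genes in common, with the median of all genes at -0.26 against 0.01, and the member median at -0.033. With that common shift, 14 small positive differences became negative: Aurkb -0.10, Birc5 -0.059, Bub1 -0.22, Bub1b -0.25, Ttk -0.071, Fzr1 -0.042, Cenpa -0.090, Cenpe -0.24, Kif11 -0.051, Kif23 -0.11, Kif4 -0.024, Smc4 -0.15, Ncapg -0.0013 and Ect2 -0.26. Ect2 was -0.0037 with quantile normalization, and Top2a and Anln were 0.059 and 0.032 with median scaling. With the mean over the probe sets of a gene, 6 members were higher and 0 lower, and signs turned for Incenp (0.32), Bub3 (-0.073), Cenpf (0.055), Ncaph (0.060) and Top2a (0.028).

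The cause of the lost calls was not tested. Leaving out each array in turn, where the lone array is assumed to vary like those of the other line, gave 6 to 8 members higher, 1 to 2 lower, a member median of 0.16 to 0.31, and 1999 to 2195 genes higher and 1970 to 2270 lower in all. Small differences turned sign there: Bub1b ran from -0.17 to 0.24, Top2a from -0.12 to 0.11, Ect2 from -0.13 to 0.18, Incenp from -0.28 to 0.15, Cenpe from -0.080 to 0.17, Anln from -0.14 to 0.081, Bub1 from -0.032 to 0.17, Cdc20 from -0.28 to 0.018, Cenpf from -0.23 to 0.067 and Smc4 from -0.0030 to 0.27. With the replicate block, 7 members were higher and 1 lower and no member's call changed. Over the tested probe sets, the deviations of L929 replicate 1 and NIH3T3 replicate 1 from their line means correlated at 0.01. With 2 arrays per line, the replicate 2 arrays give the same value and add nothing.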
